A study of Mus musculus with 12 samples.

Results

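The clustered protocadherins are cell-surface proteins of the cadherin superfamily whose genes lie in 3 neighbouring arrays, called alpha, beta and gamma. Members were taken by gene symbol from the table of estimated counts, which gave 54 of its 30740 entries, with 14 in the alpha, 22 in the beta and 18 in the gamma cluster. In RefSeq on GRCm38.p6 all 3 clusters lie on chromosome 18, alpha at 36930285 to 37188897, beta at 37264998 to 37521419 and gamma at 37661775 to 37841873. RefSeq lists 22 gamma genes, and Pcdhga8, Pcdhgb6, Pcdhgc3 and Pcdhgc5 were not analysed here.

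In the alpha and gamma clusters each gene name stands for a variable exon with its own promoter, which encodes the extracellular domain and is spliced to constant exons that the whole cluster shares. Beta genes consist of a single exon and have no constant part. A neuron uses only some of the promoters, a choice known to involve DNA methylation and looping by CTCF and cohesin, and the resulting mixture of proteins binds like mixtures on other cells, which is known to let neurites of the same cell recognise and avoid each other. The C-type genes at the end of the alpha and gamma arrays are used more uniformly across neurons, and in mice loss of the gamma cluster is known to cause the death of spinal interneurons.

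RNA came from ventral spinal cord of CB6F1/J mouse embryos at embryonic day E12.5 that carried Hb9:GFP, a reporter driven by the promoter of the motor neuron gene Mnx1. Cells of pooled embryos were dissociated with papain and sorted by GFP. The libraries were 5 of GFP-positive cells of Arhgap35 knockout (KO) embryos, 5 of GFP-positive cells of control littermates, and 1 KO and 1 control library of GFP-negative cells. Arhgap35 encodes a GTPase-activating protein, a class of proteins that switch off small GTPases. The labels name the controls wild type, while the protocol gives them as wild type or heterozygous, and they call the GFP-negative samples motor neurons too. No label ties a replicate to a litter of its own. P-values therefore describe the scatter among these particular libraries, which may be technical.

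Library totals lay between 23.7 and 33.8 M estimated counts, and the clustered protocadherins took 0.0983 to 0.114% of them in GFP-positive and 0.0782 and 0.0805% in the KO and control GFP-negative libraries. In counts per scaled library total (CPM, after TMM scaling), Arhgap35 had 88.2 to 106 CPM in the 5 KO and 136 to 202 CPM in the 5 control GFP-positive libraries, with means of 96.9 ± 7.83 and 173 ± 25.5 CPM (SD, n = 5 each) and no overlap, and 96.3 and 155 CPM in the KO and control GFP-negative libraries. A second entry, under the alias Grlf1, had 0 to 8.34 CPM in the 5 KO and 23.7 to 72.1 CPM in the 5 control GFP-positive libraries. It had 6.50 and 33.0 CPM in the KO and control GFP-negative libraries. Its log2 fold change in GFP-positive cells was -2.96 (standard error 0.642), which was not called. Which part of the gene the KO allele lacks is not stated, so reads from the rest of it are no check of the genotype. The 9 motor neuron markers summed to 1650 to 2136 CPM in GFP-positive and 64.7 and 69.7 CPM in GFP-negative libraries, and Mnx1 averaged 253 against 0.474 CPM, so the defining marker of motor neurons was close to 0 in the libraries labelled motor neuron and GFP-negative. In bulk libraries such as these, fewer cells of a type and less RNA per cell cannot be told apart.

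How far a single value can be trusted differs between the clusters. Of all 50-base windows of a member's transcripts in GENCODE M21, the length of the reads, a median of 39.0% in alpha, 95.5% in beta and 54.9% in gamma occurred in no other gene. The shares ran from 8.39% (Pcdha4) to 51.8% (Pcdhac2) in alpha and from 1.03% (Pcdhga10) to 64.5% (Pcdhgb5) in gamma, and Pcdhb12 had the lowest share of beta at 35.8%. Reads from shared windows were divided between genes by the authors' estimate, and 0.595% of alpha, 3.16% of beta and 0.463% of gamma values above 0 were whole numbers to within 1e-09, against 23.3% over all genes. The beta share includes Pcdhb1, whose values above 0 were all 1, so these shares are not used to set beta apart. By the shares of windows, single alpha and gamma values rest partly on that division, whereas most beta values rest mainly on reads of their own. All 54 members are accounted for: 53 passed the filter on low counts in every comparison, and Pcdhb1 had 0 or 1 count in each of the 12 libraries, under the floor of 3 counts, and was not tested.

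Per transcript length, in the deposited TPM values, the gamma cluster had the highest summed level in every library. The beta cluster had the lowest in GFP-positive cells, whereas in the KO and control GFP-negative libraries alpha was lowest, at 35.2 and 38.4 TPM beside 70.8 and 67.6 TPM for beta. In GFP-positive cells gamma summed to 288 ± 7.97 TPM in KO and 285 ± 16.3 TPM in control cells, alpha to 150 ± 14.0 and 147 ± 17.2 TPM, and beta to 95.9 ± 6.98 and 94.4 ± 7.84 TPM (KO before control, SD, n = 5 each). In the gamma cluster a single entry, Pcdhga9, a member of the gamma A subfamily, held 36.5 ± 2.25% of the summed TPM in KO and 37.7 ± 1.91% in control GFP-positive cells, and 48.7 and 46.7% in the KO and control GFP-negative libraries. Of the windows of Pcdhga9, 60.9% occur in no other gene and 39.05% occur in a gene outside the 54 members. Whether reads of the shared constant exons, or of the 4 gamma genes not analysed here, were assigned to Pcdhga9 was not tested, and its level, its share and its difference between the sorted populations carry that uncertainty. Its mean level was 105 ± 6.33 TPM in KO and 107 ± 6.55 TPM in control GFP-positive cells, several times that of the next gamma member, the C-type Pcdhgc4, with 28.5 ± 1.55 and 27.8 ± 4.65 TPM. Pcdhgc4, the gamma isoform that mouse interneurons are known to need for survival, held 9.92 ± 0.719% of the gamma TPM in KO and 9.74 ± 1.24% in control GFP-positive cells, and 4.93 and 4.69% in the KO and control GFP-negative libraries.

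The alpha cluster was led by its C-type member Pcdhac2, which serotonergic neurons of mice are known to need for spacing their axons, at 25.9 ± 2.03 TPM in KO and 26.8 ± 3.07 TPM in control GFP-positive cells. Pcdha12 followed with 20.3 ± 3.45 and 19.6 ± 2.06 TPM, and the other C-type member, Pcdhac1, had 7.10 ± 0.642 and 6.96 ± 1.11 TPM. The lowest alpha member was Pcdha8, with 0.815 ± 0.229 and 0.864 ± 0.210 TPM. In GFP-positive cells no beta member reached the mean level of Pcdhac2 or Pcdha12: Pcdhb17 was highest with 15.4 ± 0.938 TPM in KO and 14.5 ± 1.499 TPM in control cells, and it held 16.1 ± 0.631 and 15.4 ± 1.65% of the beta TPM. The order was the reverse in the KO and control GFP-negative libraries, with 12.02 and 10.7 TPM for Pcdhb17 beside 5.68 and 5.88 TPM for Pcdhac2 and 4.86 and 4.45 TPM for Pcdha12. Pcdhb7 and Pcdhb20 came next, at 7.99 ± 0.993 and 8.09 ± 0.639 TPM in KO against 8.27 ± 0.521 and 7.76 ± 0.697 TPM in control cells, an order that turned round between the genotypes and lay within the spread. Pcdhb21 was listed at 0 in several libraries and had up to 95.8 counts in others, and its gene overlaps that of Pcdhb22 in GENCODE M21, though not in RefSeq.

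**Figure D1:**
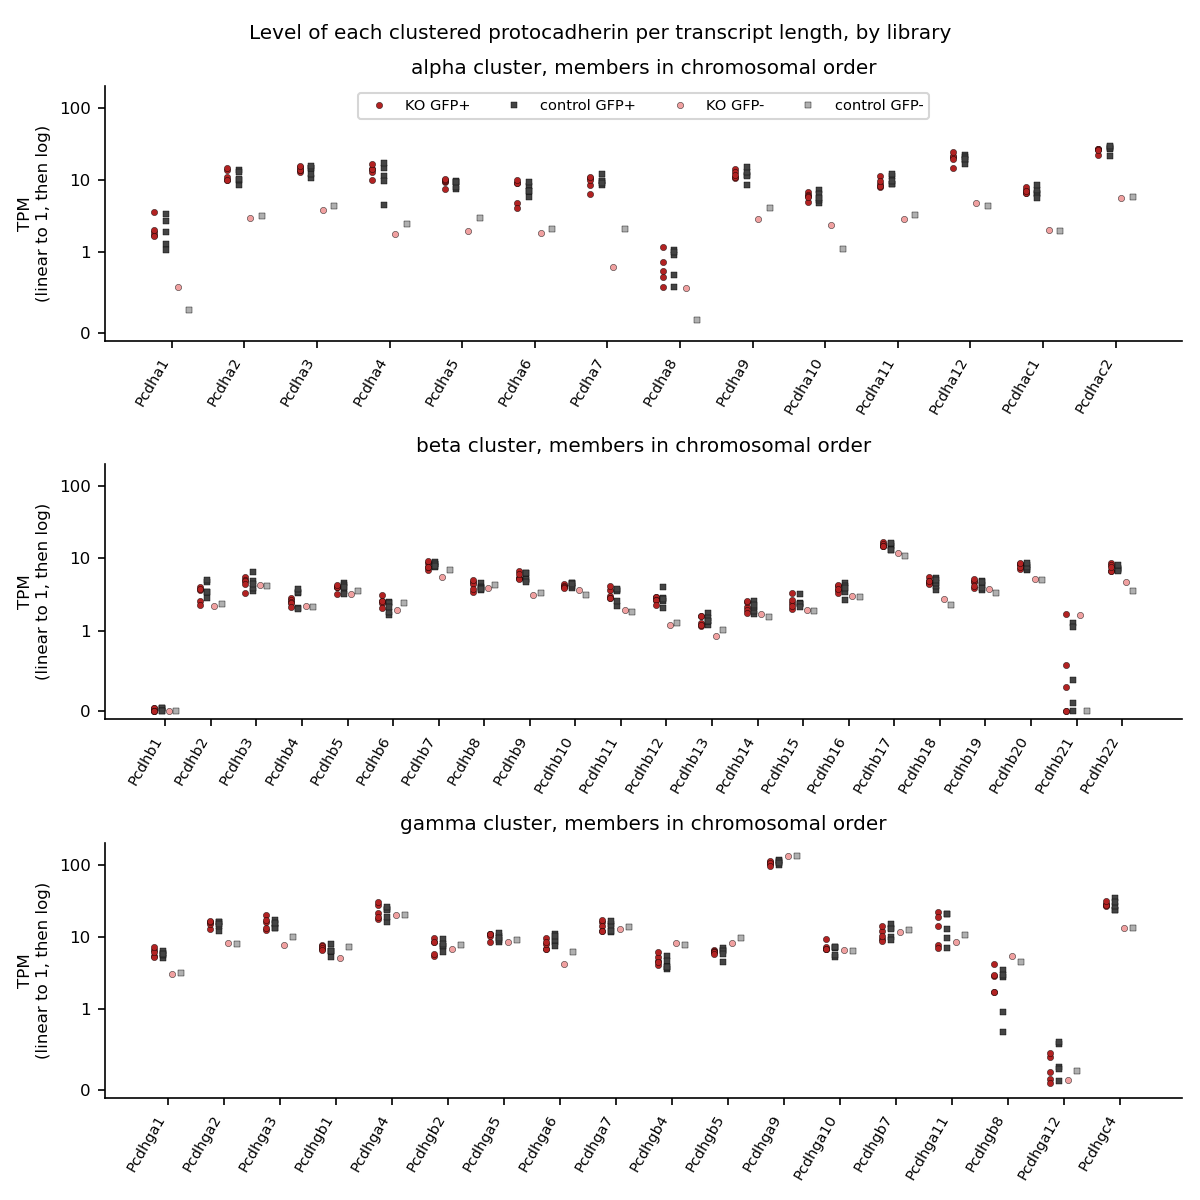
Level of each clustered protocadherin in every library, in deposited TPM (vertical axis, linear up to 1 and logarithmic above), with members in chromosomal order and KO GFP-positive, control GFP-positive, KO GFP-negative and control GFP-negative libraries side by side. Pcdhga9 stands above all other members in every library, the alpha members lie lower in the pale GFP-negative points than in the dark GFP-positive ones, and Pcdhb1 lies at or near 0.

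The comparison of KO with control GFP-positive cells asks whether loss of Arhgap35 alters the set of protocadherins of motor neurons. No clustered protocadherin passed the threshold: 0 of 53 tested members had an adjusted p under 0.05 in edgeR's quasi-likelihood test with Benjamini-Hochberg adjustment, where 6 of 17487 genes or 0.0343% did. At an unadjusted p under 0.05 there were 0 of 53 members and 375 of 17487 genes, and DESeq2 and limma on log2 TPM also called 0 members. The median log2 fold change was 0.018 in alpha, 0.030 in beta and 0.047 in gamma, beside -0.0016 over all genes tested. Members stood on either side of 0, with 9 of 14 alpha, 12 of 21 beta and 12 of 18 gamma members above it.

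These values also bound the size of a difference among these particular libraries, whose scatter may be technical. The fit takes no account of the replicate number. In it the 95% confidence interval of the fold change lay within 1.5-fold in either direction for 43 of 53 members. For 50 it lay within 2-fold (45 and 50 with the replicate number as a block). The widest intervals were those of Pcdhb21 (log2 -3.05 to 2.62), Pcdhgb8 (-0.72 to 1.30) and Pcdhga12 (-1.56 to 0.62), which have few counts or differ widely between libraries. The summed levels of the clusters were as close: alpha had 344 ± 34.4 CPM in KO and 338 ± 39.4 CPM in control cells, beta 154 ± 12.4 and 152 ± 13.2 CPM, and gamma 585 ± 16.9 and 583 ± 27.9 CPM (SD, n = 5 each). The log2 ratios of these means were 0.025, 0.019 and 0.0061, each smaller than the spread within a genotype.

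Per cluster, the member with the smallest p in this comparison is given by library. Pcdha11, an alpha isoform, had 17.7, 25.8, 19.4, 17.7 and 21.7 CPM in KO replicates 1 to 5, against 19.0, 24.8, 20.1, 21.2 and 26.1 CPM in control replicates 1 to 5. The groups overlapped across nearly their whole range (log2 fold change -0.12, standard error 0.121, 95% confidence interval -0.39 to 0.14). Pcdhb6, a beta gene of low level, had 2.76, 3.43, 2.61, 2.70 and 2.22 CPM in KO and 1.76, 2.68, 2.01, 2.55 and 2.29 CPM in control replicates. KO was above control in the replicates numbered 1 to 4 and below it in number 5, and the fold change missed the threshold (log2 0.28, standard error 0.157, edgeR adjusted p = 0.9999). Pcdhga6, a gamma A isoform, had 13.3, 19.6, 13.5, 15.6 and 16.6 CPM in KO and 16.5, 21.5, 15.4, 17.98 and 20.4 CPM in control replicates.

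For Pcdhga6 KO was below control in all 5 replicate numbers, although the groups overlapped. Its log2 fold change was -0.22 (standard error 0.120, unadjusted p = 0.0928) and, with the replicate number as a block, -0.22 with a standard error of 0.0510 (unadjusted p = 0.00118), which did not pass edgeR's adjustment over all genes (adjusted p = 0.541). With the block, 4 of 53 members had an unadjusted p under 0.05, namely Pcdha11, Pcdhga6, Pcdhga10 and Pcdhgb7, beside 889 of 17487 genes. None of the 53 was called with the block, where 5 of 17487 genes or 0.0286% were.

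**Figure D2:**
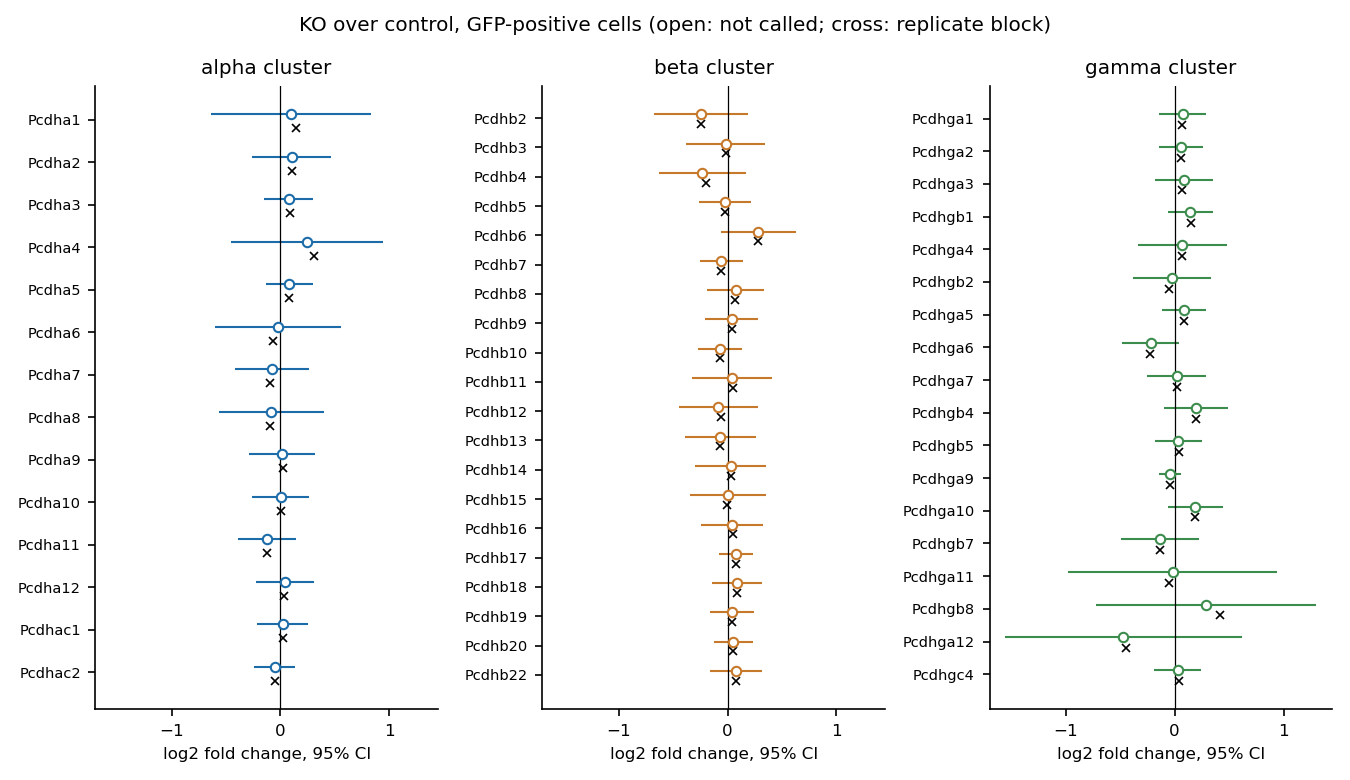
Log2 fold change of KO over control GFP-positive cells for each tested member except Pcdhb21 (points with 95% confidence intervals; open points did not pass the threshold; crosses give the fit with the replicate block), in chromosomal order within the alpha, beta and gamma clusters. All points are open and most intervals are narrow around 0, with the widest at Pcdhgb8 and Pcdhga12.

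The comparison of GFP-positive with GFP-negative cells showed differences of unlike size in the 3 clusters. The alpha cluster summed to 292, 371, 353, 329 and 376 CPM in KO and 290.3, 363, 319.5, 326 and 391 CPM in control GFP-positive libraries, against 82.6 CPM in the KO and 89.7 CPM in the control GFP-negative library. All 10 GFP-positive libraries were far above both GFP-negative ones, and the mean was 3.96-fold higher. The beta cluster summed to 151, 168, 166, 138 and 149 CPM in KO and 140.0, 169, 139, 153 and 161 CPM in control GFP-positive libraries, against 113 and 108 CPM in the KO and control GFP-negative libraries, 1.39-fold higher in GFP-positive cells and again without overlap. The gamma cluster summed to 561, 597, 597, 598 and 574 CPM in KO and 572, 614, 541, 596 and 592 CPM in control GFP-positive libraries, against 562 and 586 CPM in the KO and control GFP-negative libraries. Its groups overlapped, and the mean ratio was 1.02.

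Both GFP-negative libraries carry the replicate number 1, so the ratio was also taken among the libraries of that number, a choice made after seeing the data. There the alpha sum of GFP-positive cells was 3.53-fold that of GFP-negative cells in KO and 3.24-fold in control embryos. The near-equality of the gamma sums was set in part by Pcdhga9: without it, also chosen after its values were seen, gamma had 369.8 ± 19.4 CPM in KO and 361 ± 25.0 CPM in control GFP-positive cells, against 286 and 309 CPM in the KO and control GFP-negative libraries, a log2 ratio of 0.30. Among the libraries numbered 1 the log2 ratio without Pcdhga9 was smaller, 0.24 in KO and 0.13 in control embryos. The sign of the whole gamma ratio was not stable either, with log2 0.026 by TMM and -0.026 with library size as the only scaling.

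**Figure D3:**
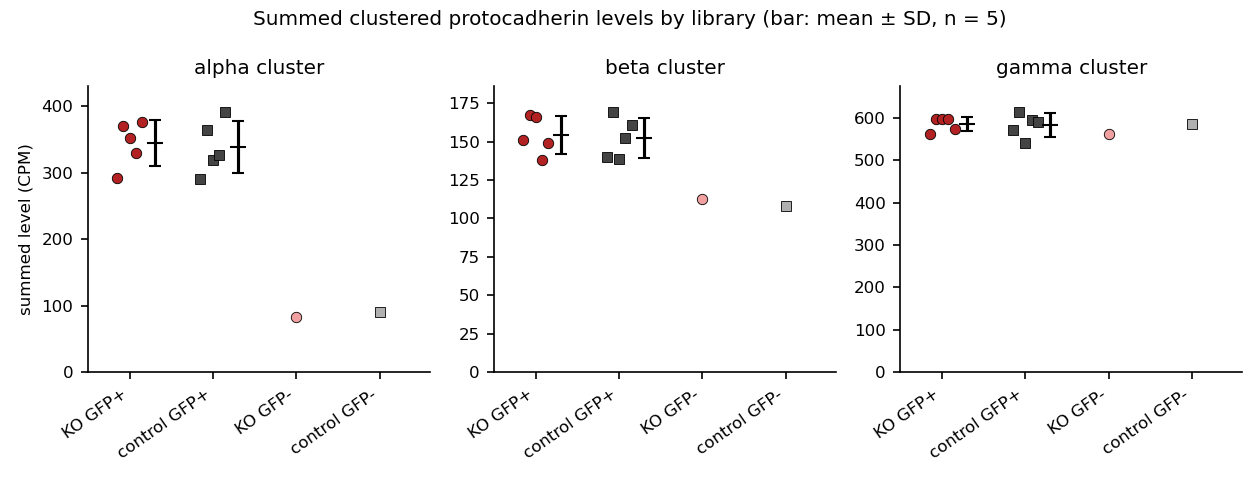
Summed level of the alpha, beta and gamma members in each library in CPM (each axis starts at 0), for KO GFP-positive, control GFP-positive, KO GFP-negative and control GFP-negative cells, with bars for the mean and SD of the 5 GFP-positive libraries. The alpha sums lie at 290.3 to 391 CPM in GFP-positive and at 82.6 and 89.7 CPM in GFP-negative libraries, while the gamma sums of the 4 groups lie side by side.

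In the alpha cluster 14 of 14 members were higher in GFP-positive cells, where 31.1% of 19032 genes were called higher and 32.6% lower (edgeR's quasi-likelihood test, Benjamini-Hochberg adjusted p under 0.05). Log2 fold changes ran from 1.22 (Pcdha8) to 2.70 (Pcdha7) with a median of 1.87, beside 0.015 over all genes. For 13 of the 14 the libraries did not overlap, as for 29.9% of all genes in that direction, and the exception was Pcdha8. All 14 were also higher with the replicate block, with a median of 1.56.

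The alpha members that lead the cluster showed it in every library. The C-type gene Pcdhac2 had 52.5, 65.2, 64.2, 62.7 and 61.9 CPM in KO and 51.2, 62.4, 68.5, 64.7 and 71.4 CPM in control GFP-positive libraries, against 13.8 and 14.2 CPM in the KO and control GFP-negative libraries. Its log2 fold change was 2.16 (standard error 0.123, edgeR adjusted p = 9.23e-09), the smallest p in the family, and replicate 1 of either genotype was the lowest of its GFP-positive group. Pcdha12 had 48.1, 50.1, 55.4, 33.5 and 45.2 CPM in KO and 50.0, 47.9, 44.6, 38.1 and 44.6 CPM in control GFP-positive libraries, against 11.4 and 10.4 CPM in the KO and control GFP-negative libraries (log2 2.07, standard error 0.171). Replicate 4 was its lowest in either genotype and still well above the GFP-negative libraries.

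Pcdhac1, the second C-type alpha gene, had 14.98, 16.8, 18.8, 14.9 and 16.4 CPM in KO and 15.3, 14.96, 17.5, 13.01 and 20.04 CPM in control GFP-positive libraries, against 4.82 and 4.65 CPM in the KO and control GFP-negative libraries (log2 1.78, standard error 0.152). Pcdha3, an isoform from the start of the array, had 29.7, 34.7, 31.3, 31.3 and 35.7 CPM in KO and 24.1, 33.0, 28.0, 33.0 and 36.3 CPM in control GFP-positive libraries, against 9.17 and 10.3 CPM in the KO and control GFP-negative libraries (log2 1.70, standard error 0.143). The fold changes of both C-type genes lay within the range of the other alpha members. Of the make-up of the cluster, Pcdhac2 held 17.4 ± 0.920 and 18.3 ± 1.72% of the alpha TPM in KO and control GFP-positive cells and 16.1 and 15.3% in the KO and control GFP-negative libraries.

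In the beta cluster 11 of 21 tested members were higher in GFP-positive cells and 0 were lower, where 31.1% of all genes were higher and 32.6% lower, with a median log2 fold change of 0.36. The largest differences were at Pcdhb22, the last gene of the array, and at Pcdhb12 (log2 1.123), which shares 62.9% of its windows with transcripts outside the 54 members. Pcdhb22 had 15.2, 19.6, 15.2, 13.5 and 17.4 CPM in KO and 12.9, 18.4, 14.7, 15.2 and 15.4 CPM in control GFP-positive libraries, against 6.39 and 8.01 CPM in the KO and control GFP-negative libraries (log2 1.13, standard error 0.156, edgeR adjusted p = 2.44e-05). Pcdhb18 had 10.1, 12.2, 10.7, 9.53 and 10.8 CPM in KO and 8.12, 11.6, 9.32, 10.1 and 11.3 CPM in control GFP-positive libraries, against 6.25 and 5.09 CPM in the KO and control GFP-negative libraries (log2 0.87, standard error 0.137). Neither gene's groups overlapped, although for Pcdhb22 the order of the GFP-negative libraries turned round on the TPM scale, with 4.65 TPM in the KO and 3.53 TPM in the control library.

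Pcdhb20 had 10.6, 12.6, 12.6, 11.2 and 12.9 CPM in KO and 10.3, 12.02, 10.9, 11.5 and 12.97 CPM in control GFP-positive libraries, against 7.93 and 7.60 CPM in the KO and control GFP-negative libraries (log2 0.60, standard error 0.101). The most abundant beta member, Pcdhb17, differed less, with 20.9, 24.3, 22.6, 20.7 and 21.1 CPM in KO and 21.0, 22.1, 19.0, 23.2 and 18.6 CPM in control GFP-positive libraries, against 17.6 and 15.5 CPM in the KO and control GFP-negative libraries (log2 0.37, edgeR adjusted p = 0.00229). Without the control GFP-negative library Pcdhb17 missed the threshold (log2 0.31, edgeR adjusted p = 0.0585). Pcdhb7 had 10.4, 13.4, 14.3, 11.5 and 11.5 CPM in KO and 12.8, 13.6, 13.3, 11.6 and 12.2 CPM in control GFP-positive libraries, against 8.77 and 10.9 CPM in the KO and control GFP-negative libraries.

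Pcdhb7 is a borderline case, since its groups overlapped. Its log2 fold change of 0.34 (edgeR adjusted p = 0.0174) did not hold with the replicate block (0.24, adjusted p = 0.0963) or without the KO GFP-negative library (0.22, adjusted p = 0.273). With the block 8 beta members were called higher, where 27.9% of all genes were, since Pcdhb7, Pcdhb11 and Pcdhb13 missed the threshold. Without the control GFP-negative library 6 beta members were called higher.

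In the gamma cluster 5 of 18 members were higher in GFP-positive cells, 3 were lower and 10 were not called, with a median log2 fold change of 0.11. The share called higher was near that of all genes, 31.1%, and the share called lower was under their 32.6%. The libraries did not overlap for 5 members in the upward and 4 in the downward direction, as for 29.9% and 32.4% of all genes. Higher were Pcdhga1, Pcdhga2 and Pcdhga3 at the start of the array (log2 0.91, 0.86 and 0.75), Pcdhga6 (0.69) and the C-type Pcdhgc4 at its end (1.05). Lower were Pcdhgb4, Pcdhgb5 and Pcdhga9, which follow one another in the order of the entries (log2 -0.83, -0.57 and -0.34). Between and after them lay some members close to 0, such as Pcdhgb2 (0.053), Pcdhga7 (0.046) and Pcdhga10 (0.052). Others after them were farther from 0 but uncalled, with wide standard errors: Pcdhga11 (0.55, standard error 0.514), Pcdhgb8 (-1.05, 0.482) and Pcdhga12 (0.76, 0.640).

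Pcdhgc4 had 60.7, 63.1, 59.3, 60.3 and 68.1 CPM in KO and 51.5, 74.8, 53.5, 58.2 and 67.9 CPM in control GFP-positive libraries, against 29.8 and 29.7 CPM in the KO and control GFP-negative libraries (standard error 0.124, edgeR adjusted p = 8.09e-06). Pcdhga2 had 25.1, 32.2, 30.0, 31.7 and 32.9 CPM in KO and 23.5, 31.7, 28.6, 31.4 and 30.5 CPM in control GFP-positive libraries, against 16.5 and 16.2 CPM in the KO and control GFP-negative libraries. Pcdhga1 had 10.5, 13.1, 10.4, 12.2 and 14.1 CPM in KO and 10.1, 11.7, 11.3, 12.7 and 11.7 CPM in control GFP-positive libraries, against 6.14 and 6.38 CPM in the KO and control GFP-negative libraries. None of these 3 genes had a GFP-positive library as low as a GFP-negative one. For Pcdhga6, whose GFP-positive values are given above, the GFP-negative libraries had 8.66 CPM in KO and 12.6 CPM in control embryos.

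Pcdhga9 went the other way with little spread: it had 224, 212, 229, 216 and 197 CPM in KO and 233, 219, 206, 232 and 218 CPM in control GFP-positive libraries, against 276 and 277 CPM in the KO and control GFP-negative libraries (standard error 0.0536, edgeR adjusted p = 8.06e-05). Pcdhgb4, of the gamma B subfamily, had 8.95, 10.3, 11.96, 7.99 and 8.86 CPM in KO and 10.7, 8.88, 7.26, 7.40 and 7.63 CPM in control GFP-positive libraries, against 16.3 and 15.6 CPM in the KO and control GFP-negative libraries (edgeR adjusted p = 0.000203). Pcdhgb5 had 13.05, 12.9, 12.2, 12.2 and 11.3 CPM in KO and 12.9, 13.9, 9.24, 12.7 and 11.4 CPM in control GFP-positive libraries, against 16.4 and 19.7 CPM in the KO and control GFP-negative libraries. Its call (edgeR adjusted p = 0.000721) was just missed without the control GFP-negative library (log2 -0.42, adjusted p = 0.0503). Pcdhgb8 had the lowest log2 fold change of the cluster, -1.05, but a standard error of 0.482 and an edgeR adjusted p of 0.0787.

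With the replicate block the gamma calls were 7 higher and 4 lower, where 27.9% of all genes were higher and 29.6% lower: Pcdhga4 (log2 0.32) and Pcdhga7 (0.17) were added to the higher and Pcdhgb7 (-0.37) to the lower ones. Fewer gamma members were called higher without the KO GFP-negative library, a fit that leaves 1 GFP-negative library. The number of all genes called also changed with the library left out. Marker genes of other cells moved with GFP. The 10 markers of neural progenitors summed to 410.3 to 551 CPM in GFP-positive and 2322 and 2072 CPM in the KO and control GFP-negative libraries, and the 9 of dorsal interneurons to 48.7 to 201 CPM against 998 and 1111 CPM. All 10 and all 9 of them were called lower in GFP-positive cells, Vim (log2 -1.33) and Ptf1a (-6.17) among them, and their part in the protocadherin differences was not tested.

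**Figure D4:**
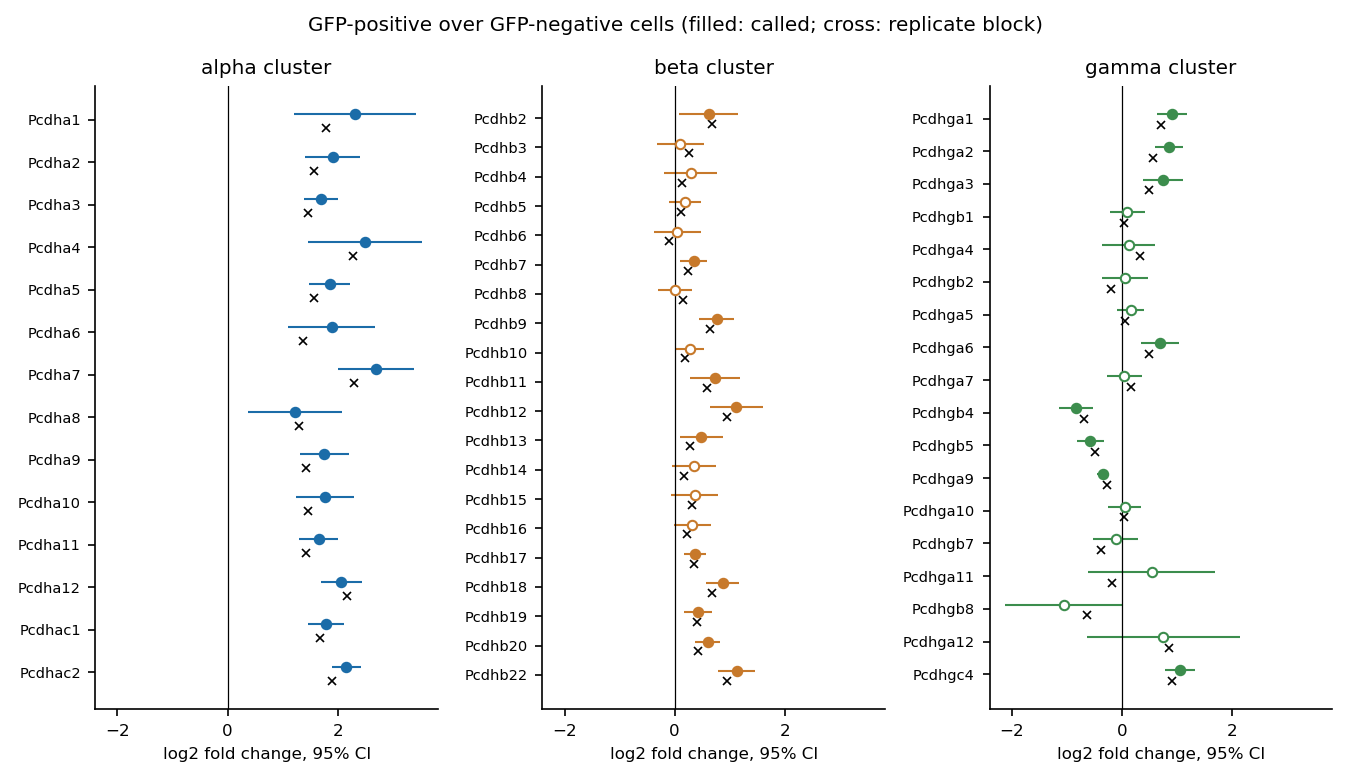
Log2 fold change of GFP-positive over GFP-negative cells for each tested member except Pcdhb21 (points with 95% confidence intervals; filled points passed the threshold; crosses give the fit with the replicate block), in chromosomal order within each cluster. All 14 alpha points are filled and above 1, the beta points lie between 0 and 1.13, and the gamma points lie on either side of 0, from -1.05 at Pcdhgb8 to 1.05 at Pcdhgc4.

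The test of whether the KO effect differed between GFP-negative and GFP-positive cells called 5 of 19763 genes or 0.0253% and 0 of 53 members by edgeR's quasi-likelihood test, and DESeq2 also called 0 members. It rests on 1 GFP-negative library per genotype, each assumed to vary like the GFP-positive libraries. At an unadjusted p under 0.05 there were 5 of 53 members, namely Pcdha5, Pcdha7, Pcdha8, Pcdha10 and Pcdhgb1, beside 352 of 19763 genes. The median standard error of a member's log2 difference was 0.318.

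Libraries of the same replicate number resembled each other in their protocadherins across genotypes, which was tested after it had been seen. An F-test of the replicate numbers beside genotype in the GFP-positive libraries (edgeR's quasi-likelihood fit, Benjamini-Hochberg adjusted p under 0.05) called 15 of 53 members, of which 6 were alpha and 9 gamma, where 9.71% of 17487 genes were called. In the beta cluster 0 of 21 were called. The labels do not state what libraries of one number have in common.

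The gamma isoform Pcdhga11, chosen like the others described by replicate number after its values were seen, ranked 16th of all genes by p. It had 15.5, 29.8, 14.6, 45.2 and 38.8 CPM in KO and 19.9, 26.6, 14.9, 42.2 and 43.0 CPM in control replicates 1 to 5 (edgeR adjusted p = 0.000764). The libraries numbered 4 and 5 were highest and those numbered 1 and 3 lowest in both genotypes, and the highest mean by number was 2.96 times the lowest. The KO and control GFP-negative libraries, both numbered 1, had 17.6 and 22.3 CPM, close to their GFP-positive counterparts of that number. Pcdhga11 has 27.6% of its windows to itself, and 72.4% occur in a gene outside the members.

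Its neighbour Pcdhgb8 showed nearly the opposite order, with 5.79, 5.98, 8.57, 3.41 and 3.53 CPM in KO and 7.06, 5.61, 6.13, 1.92 and 1.44 CPM in control replicates (edgeR adjusted p = 0.0491). Pcdhga4 and Pcdhga7 were likewise lowest in numbers 4 and 5: Pcdhga4 had 53.7, 42.2, 60.4, 34.2 and 37.3 CPM in KO and 48.3, 46.7, 52.1, 32.2 and 37.4 CPM in control replicates (adjusted p = 0.00237). Pcdhga7 had 31.9, 28.7, 34.3, 24.4 and 24.4 CPM in KO and 30.2, 28.5, 34.6, 23.5 and 25.0 CPM in control replicates (edgeR adjusted p = 0.00280). Pcdhgb7 stood with Pcdhga11 rather than with these, since its highest libraries were those numbered 4, at 27.4 CPM in KO and 29.6 CPM in control cells, and its lowest those numbered 3, at 17.5 and 18.2 CPM. Of the windows of Pcdhga4 34.7%, of Pcdhgb7 38.5%, of Pcdhgb8 49.8% and of Pcdhga7 50.45% occur in no other gene. The part that the division of shared reads has in these orders was not tested. Every gamma sum of a GFP-positive library lay between 541 and 614 CPM. Without Pcdhga9 the sum was lowest in numbers 1 and 3 in both genotypes, at 337 and 368 CPM in KO and 339 and 335 CPM in control cells, and Pcdhga11 was lowest in those numbers too.

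In the alpha cluster Pcdha2 was the clearest, with 22.1, 31.9, 25.0, 22.4 and 33.0 CPM in KO and 19.0, 31.3, 23.3, 22.8 and 28.9 CPM in control replicates (edgeR adjusted p = 0.00254), highest in numbers 2 and 5. The alpha count depended on which numbers entered, and was 1 without number 1 and 2 without number 5, while the gamma count was 6 to 9 over all such exclusions. Markers of other cells also moved with the number: the dorsal interneuron sum averaged 177, 96.8, 60.5, 147 and 50.5 CPM over replicates 1 to 5 and the neural progenitor sum 526, 494, 478, 428 and 417 CPM, while the motor neuron sum averaged 1682, 1754, 2120, 1873 and 2048 CPM. The part of these cells in the order of Pcdhga11 and the other members was not tested.

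**Figure D5:**
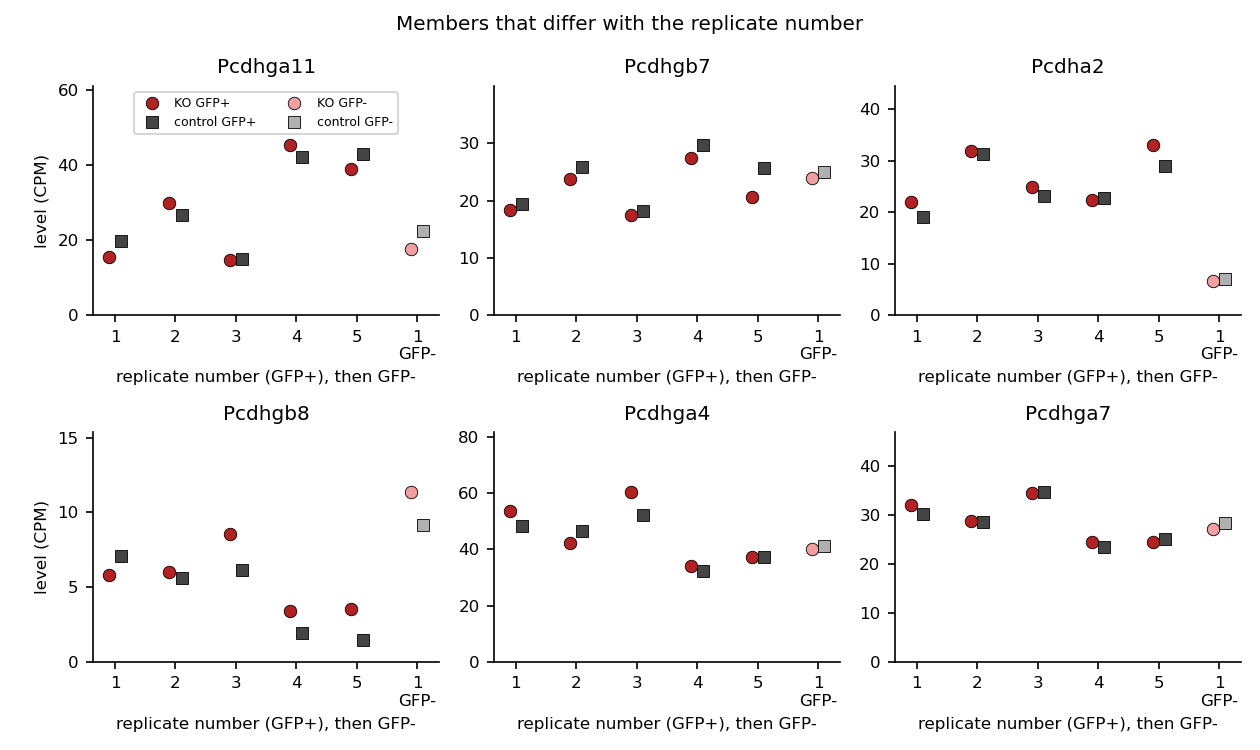
CPM of Pcdhga11, Pcdhgb7, Pcdha2, Pcdhgb8, Pcdhga4 and Pcdhga7 by replicate number in KO (circles) and control (squares) GFP-positive libraries, with the GFP-negative libraries of number 1 at the right (pale symbols). The circle and square of each number lie close together for 5 of the 6 genes and farther apart for Pcdhgb8, with 3.53 CPM in KO and 1.44 CPM in control replicate 5, and Pcdhga11 is high where Pcdhgb8, Pcdhga4 and Pcdhga7 are low.

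Genes around the family were read from lists, which were chosen with earlier results of these data known. In KO against control cells 0 genes were called in any of these 4 lists or of the 9 marker lists. Median log2 fold changes of the marker lists lay on either side of 0. They were -0.70 for ventral interneuron, -0.29 for dorsal interneuron and -0.24 for sensory neuron and neural crest markers. For endothelial markers the median was 0.61 and for erythroid and microglial ones 0.38, and the remaining lists had 0.016 to 0.058. With the replicate block the ventral and dorsal interneuron medians were -0.46 and -0.030. Of 24 measured regulators of protocadherin promoters, 0 were higher and 21 lower in GFP-positive than in GFP-negative cells, where 31.1% of all genes were higher and 32.6% lower, and the list's median log2 fold change was -0.59. Among them were the chromatin loop factor Ctcf (-0.82), the cohesin subunits Stag2 (-0.89) and Rad21 (-0.59) and the DNA methyltransferase Dnmt3a (-0.93). These fell in the libraries in which the alpha members were higher, and a link between them was not tested.

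Of 25 partners and signalling genes 12 were higher and 6 lower in GFP-positive cells, beside the 31.1% higher and 32.6% lower of all genes, among them the receptor tyrosine kinase Ret, which binds protocadherins (log2 4.63), the synaptic adhesion gene Nlgn1 (1.12), the small GTPase Cdc42 (0.60) and Marcks, which encodes a membrane-bound substrate of protein kinase C (-0.99). Of the 12 non-clustered protocadherins 8 were higher and 2 lower, with a median of 1.29, and included Pcdh7 (2.71), Pcdh10 (2.25), Pcdh15 (1.69) and Pcdh1 (1.65). Of 16 tested genes between and beside the clusters 5 were higher and 5 lower with a median of -0.085, shares near those of all genes in both directions. The 4 of smallest p were Rell2 (1.11), Fchsd1 (1.08), Rnf14 (0.90) and Hars (0.35). Of the remaining marker lists, 6 of 8 pan-neuronal genes were higher and 1 lower in GFP-positive cells, and 6 of 10 ventral interneuron, 3 of 6 sensory neuron and neural crest, 2 of 6 endothelial, 4 of 6 mesenchymal and 7 of 7 erythroid and microglial markers were lower.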

How the data were processed

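Polyadenylated RNA of 12 libraries was read as 50-base single ends with a kit that keeps no strand, per the labels' protocols. The authors deposited estimated counts per gene symbol (expected counts, not normalized) and TPM whose totals differ between libraries. The labels do not say why these totals differ. The submitters' processing notes name kallisto, without a version, and mm10. Rounded counts were fitted in edgeR 4.0.16 (limma 3.58.1, R 4.3.3) after filterByExpr and TMM scaling. Each comparison used the quasi-likelihood F-test with robust fitting, and p-values were adjusted by Benjamini-Hochberg over all genes, with 0.05 as the threshold. KO and control were compared in 10 GFP-positive libraries, while the sorted populations were compared over all 12, adjusting for genotype. Columns left unmatched numbered 0.

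Levels are given as CPM, taken after TMM scaling. A floor of 3 counts equals 0.0891 to 0.127 CPM, which covers counting error only. Libraries of the same replicate number correlated at r = 0.179 to 0.381 in their residuals from the group means, against at most 0.104 for other pairs. The main fits did not use this pairing. The replicate block, run as an alternative, pairs the libraries by number. It lowered the members' median standard error in KO against control from 0.121 to 0.0783. No pair of replicates agreed within sampling noise (chi-square per degree of freedom 7.92 to 24.3). The scripts were tested on simulated data.

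Alternatives were DESeq2 size factors, DESeq2 1.42.0, no filter, limma on log2(TPM + 1) and log2(TPM + 0.1), either genotype alone, the replicate block and leaving out each library. Named members are, per cluster, the 2 with the highest TPM, the C-type genes and for each comparison and direction the 3 called members of smallest p, or 1 where none was called. From each of the gene lists up to 4 called genes are named, and other genes were named after their values were seen. The members, lists and tests were chosen with earlier results of these data known. Promoter and protein sequences were not used here.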

Additional observations from a re-analysis of the deposited data

Results flagged for a closer look

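Across 60 groups of 5 libraries, formed by 27 members and the 3 cluster sums in KO and control GFP-positive cells, 1 library stood apart by Dixon's test at its 95% critical value of 0.71, where chance gives about 1 in 20 groups. It was KO replicate 1 for Pcdhac2, at 52.5 CPM against 61.9 CPM in the nearest of the other KO GFP-positive libraries. Control replicate 1 was also the lowest of its group, at 51.2 CPM.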

How the results depend on the processing

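The count of 0 clustered protocadherins called in KO against control and in the interaction, and the 13 or 14 alpha members called higher in GFP-positive cells, held under every alternative run. Among all genes, KO against control gave 6 calls, 11 with DESeq2, 0 with limma on log2(TPM + 0.1) or unfiltered log2(TPM + 1), and 0 to 8 when 1 library was left out. The interaction gave 5 genes, 3 with DESeq2, 1 with the replicate block and 0 to 6 when 1 library was left out. Of beta members 11 were higher in GFP-positive cells, 7 among control and 6 among KO libraries alone, and 6 to 12 when 1 library was left out, with 3 to 6 for gamma. The alpha sum gave a log2 ratio of 1.76 among libraries of replicate 1, and gamma 0.30 without Pcdhga9. By replicate number, 1 beta member was called with no filter, and leaving out a number gave 566 to 2020 genes, 1 to 7 alpha and 0 to 1 beta members. Summed with fused alpha-gamma entries of their names, Pcdha6 and Pcdha7 turned from log2 -0.022 and -0.081 to 0.057 and 0.059 in KO against control, uncalled either way. Both genes were still called higher in GFP-positive than in GFP-negative cells with that sum. With the replicate block Pcdhb7 (log2 0.24), Pcdhb11 and Pcdhb13 missed the threshold in GFP-positive against GFP-negative cells. No other member lost its call to the block. The cause of these shifts was not tested. Shared constant exons limit single alpha and gamma values, and 1 GFP-negative library per genotype limits the comparisons with those cells.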
